A study of Mus musculus with 12 samples.

Results

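Brown and white perivascular fat genes were followed in RNA from the mouse thoracic aorta. The set was a list of 36 adipocyte and brown adipocyte genes, and a gene was used where a row of the array table was annotated with its symbol and no other, taking, of several such rows, the one brightest on average. Of the 36 listed genes 33 had such a row, out of 19687 genes in the table. Lipe, hormone-sensitive lipase, lay on a row shared with another gene, and Cfd and Adrb3 had no row named here, so these genes were not used. The 7 transgenic mice carried the human PPAR gamma P467L mutant, a dominant negative form of this nuclear receptor driven in vascular smooth muscle by the promoter of smooth muscle myosin heavy chain (SMMHC). The other 5 mice were littermates without the transgene. All 12 were of the C57BL/6 strain, the transgenic mice are described as male, no treatment is given for either group, and ages are not stated in the sources used here. Each array held the aorta of 1 mouse, and values are log2 intensities from the Affymetrix exon array for mouse (1.0 ST).

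Perivascular fat surrounds the aorta, and in the thoracic part of the mouse aorta it resembles brown fat. White adipocytes store triglyceride in a large droplet and secrete hormones such as adiponectin and leptin. Brown adipocytes hold many small droplets and mitochondria that release energy as heat through the uncoupling protein UCP1. PPAR gamma drives the formation of both cell types and many of their genes. A dissected aorta carries some of this fat, and in bulk RNA fewer fat cells and less RNA of a gene per fat cell cannot be told apart.

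The array table showed fat RNA in every aorta. A background level of 5.18 was taken as the 95th percentile of the mean levels of 918 odorant and vomeronasal receptor genes, silent in most tissues, and 28 of the 33 fat genes had a mean above it. The adipocyte markers Adipoq, Plin1 and Cidec and the brown markers Ucp1, Cidea, Prdm16 and Dio2 were above it in the mean of both groups. Across mice Prdm16 had r = -0.23 with Ucp1 and -0.50 with Adipoq. Plin1 had r = 0.01 with Ucp1 and Dio2 had r = 0.11 with Adipoq, and none of these pairs was tested. Which cells gave the RNA of these markers was not tested either. The white fat hormone gene Lep was under background, with all 12 arrays between 3.33 and 4.52. Its values thus do not show whether leptin RNA was present. The means of Elovl3, Elovl6, Slc27a2 and Me1 were also under background. The median of an array was 4.74 to 4.79 and its upper quartile 6.10 to 6.38. The replicates are separate mice, and their number limits the precision. One P467L array, replicate 4, stood apart in skeletal muscle markers (mean level of 16 measured genes 7.74, against 5.17 to 5.74 in the other 11 arrays). The 3 arrays least correlated with the rest were nontransgenic replicate 2 and P467L replicates 1 and 2.

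The genes of heat production differed widely between mice of the same genotype. Ucp1, whose protein uncouples respiration from ATP synthesis in brown fat mitochondria, had log2 levels of 8.10, 8.55, 10.34, 10.39 and 9.25 in nontransgenic replicates 1 to 5. In P467L replicates 1 to 7 its levels were 9.30, 9.18, 10.75, 10.28, 9.04, 10.45 and 8.04. The lowest and the highest of the 12 arrays were both P467L, and the 2 groups overlapped over nearly their whole range. From lowest to highest the difference was 2.71 log2 units, or 6.54-fold. The within-group SD of Ucp1, 0.99, was larger than that of 99.9% of the 10637 genes above background.

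Otop1, which encodes a proton channel with high RNA levels in brown fat, had a wider range of 2.86 log2 units. Its levels were 3.94, 5.12, 6.04, 6.40 and 5.40 in the nontransgenic arrays and 5.72, 4.29, 6.75, 5.52, 5.05, 5.83 and 3.88 in the P467L arrays. Its mean of 5.33 was little above the background level of 5.18. Nontransgenic replicates 1 and 2 and P467L replicates 2, 5 and 7 lay under that level. The same P467L arrays that were lowest and highest for Ucp1, replicates 7 and 3, were lowest and highest for Otop1 in all 12. Elovl3, an elongase of very long chain fatty acids that rises in cold-exposed brown fat, was at 3.99, 4.59, 5.17, 5.87 and 4.37 in nontransgenic arrays. In P467L arrays Elovl3 was at 4.72, 4.72, 5.67, 5.32, 4.11, 5.28 and 3.74. It crossed the background level in both groups, being above it only in nontransgenic replicate 4 and P467L replicates 3, 4 and 6.

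**Figure D1:**
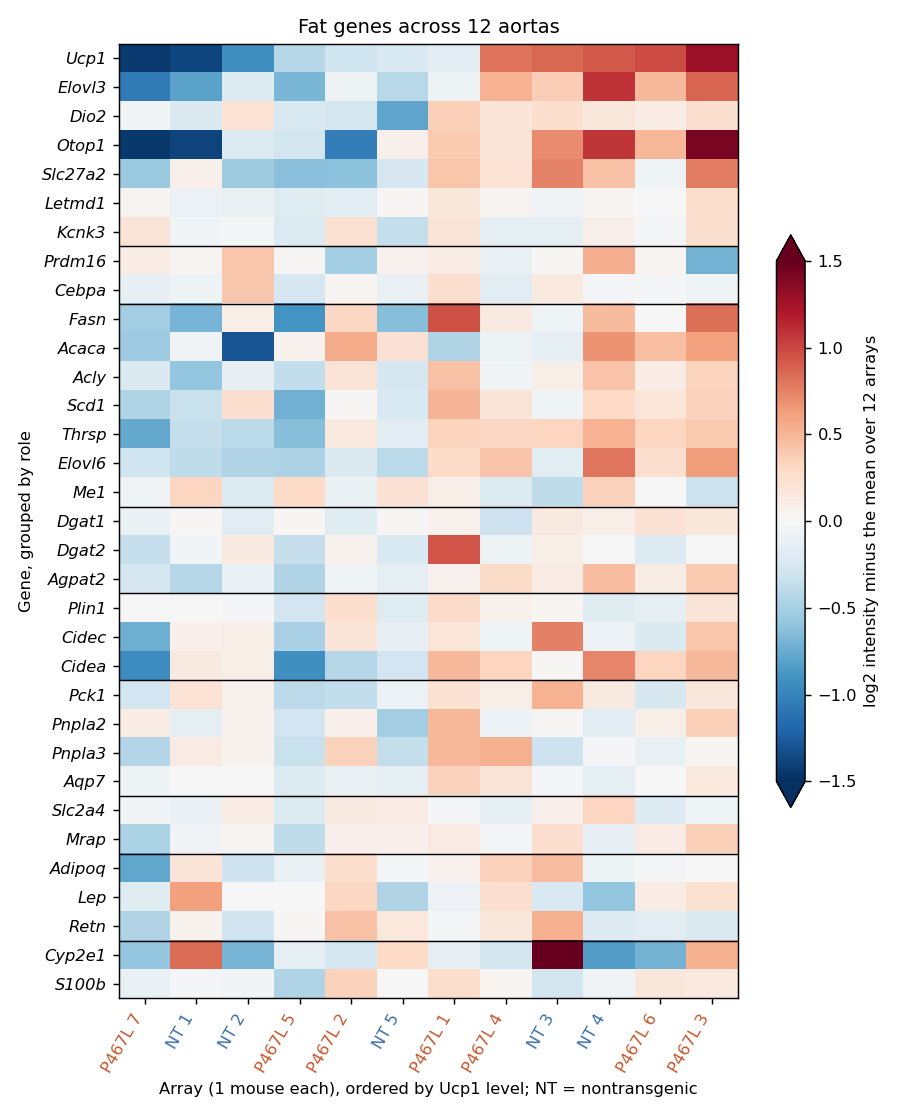
Log2 intensity of the 33 fat genes (rows, grouped by role with black lines between groups) in 12 arrays (columns, ordered by Ucp1 level), as the difference from each gene's mean over 12 arrays, with the colour scale ending at 1.5 in either direction. Ucp1, Elovl3 and Otop1 go from low to high together, and arrays of both genotypes stand at either end of the order.

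Levels of several heat production genes varied together across mice. Correlations were computed on values less their group mean, for 20 pairs of measures, 15 chosen with Adipoq and Ucp1 as anchors and 5 added after seeing the data, and permutation p-values (100000 resamples, two-sided) were adjusted over the 20. Ucp1 correlated with Elovl3 at r = 0.94 (permutation p = 4e-05, adjusted p = 0.0004; Spearman's rho 0.91, p = 0.00013). Leaving out the 2 arrays farthest from the median of Elovl3, nontransgenic replicate 4 and P467L replicate 7, gave r = 0.91. Within the 7 P467L arrays alone r was 0.97 (exact permutation p = 0.000595), and 5 nontransgenic arrays were too few for a value of their own. Among the added pairs, which were picked for their values, Ucp1 correlated with Otop1 at r = 0.90 (adjusted p = 0.0004; rho 0.95, p = 2e-05), and at 0.82 without the 2 arrays farthest in Otop1. The Ucp1 levels left a gap of 0.98 between the 7 lower and the 5 higher arrays, so the relation was also taken within the lower ones. There r was 0.74 for Elovl3 and 0.76 for Otop1 (exact permutation p = 0.0704 and 0.0671). In these lower arrays every Elovl3 level was under background, and Otop1 was above it only in nontransgenic replicate 5 and P467L replicate 1. These permutations take the 12 arrays as independent. An alternative added after seeing the data averaged the deviations of arrays of equal replicate number into 7 units, and gave r = 0.96 for Elovl3 and 0.98 for Otop1 (exact permutation, adjusted p = 0.0304 and 0.00595).

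For the other genes of the thermogenic group that were tested with Ucp1, the correlation rested on few arrays or did not pass. Slc27a2, a very long chain acyl-CoA synthetase and fatty acid transporter, correlated at r = 0.73 in an added pair (adjusted p = 0.0295; rho 0.77, p = 0.00483). That relation rests on the arrays farthest in Slc27a2, since without nontransgenic replicate 3 and P467L replicate 3 r was 0.58 (permutation p = 0.0833), and with equal numbers averaged it did not pass (exact permutation, adjusted p = 0.132). Dio2, the deiodinase that activates thyroid hormone in brown fat, was at 6.62, 7.04, 7.09, 7.00 and 6.05 in nontransgenic and at 7.20, 6.57, 7.07, 7.03, 6.61, 6.94 and 6.80 in P467L arrays. The groups overlapped, with nontransgenic replicate 5 the lowest of all. Its level correlated with Ucp1 at r = 0.40 and did not pass (adjusted p = 0.269; rho 0.39, p = 0.209; r = 0.55 without 2 arrays). Letmd1, a mitochondrial protein of brown fat, and Kcnk3, a background potassium channel, had small within-group SDs of 0.13 and 0.18. They were not among the tested pairs, and their r with Ucp1 was 0.44 and -0.07. Over the 21 pairs of the 7 thermogenic genes the median r was 0.49. It was 0.35 over the 528 pairs of all 33 genes and 0.07 over all pairs of genes above background. The share of pairs with r above 0.7 was 33.3%, 12.5% and 9.31% in the same order. Among the fat genes outside the thermogenic and lipogenic groups it was 8.19%.

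Among the fat synthesis genes, Fasn was in the pairs chosen with the anchors, while Thrsp and Elovl6 were added because of their values, so that their p-values describe genes picked for the pattern. Thrsp, a nuclear protein that promotes lipogenic gene activity, correlated with Ucp1 at r = 0.86 (adjusted p = 0.00275; rho 0.91, p = 0.00013; r = 0.85 without 2 arrays). Elovl6, an elongase of saturated fatty acids whose mean was under background, correlated at r = 0.77 (adjusted p = 0.0131; rho 0.80, p = 0.00241; r = 0.68 without 2 arrays). With arrays of equal number averaged Elovl6 did not pass (exact permutation, adjusted p = 0.0687). Fasn, fatty acid synthase, was at 6.84, 7.65, 7.48, 8.02 and 6.90 in nontransgenic and at 8.49, 7.86, 8.37, 7.68, 6.65, 7.55 and 7.02 in P467L arrays. Its correlation with Ucp1 of 0.54 did not pass (adjusted p = 0.145; rho 0.54, p = 0.0756; r = 0.68 without 2 arrays). The array highest for Fasn was P467L replicate 1, which was only seventh lowest for Ucp1. Between the 7 thermogenic and the 7 lipogenic genes the median of 49 pairwise r was 0.57, and among the lipogenic genes themselves it was 0.53.

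To set these genes beside their regulatory sequence, the 250 bases before the annotated start are shown for Ucp1, for 3 of the genes that correlated with it (Otop1, Thrsp and Elovl6) and for Adipoq, the general adipocyte gene. Elovl3 was not among the promoter entries used here, and Slc27a2, whose window held 1 AGGTCA, is left out because its correlation rested on few arrays. Agpat2, a triglyceride assembly gene, had r = 0.86 with Ucp1 but was not among the tested pairs. Its window, which held none of the 5 strings named below, is not shown. The sequences are RefSeq's, build GRCm38.p6, read along the strand of the gene, and 25 of the 33 genes had an entry. Capitals mark matches on either strand to any of 5 strings, namely the nuclear receptor half-site AGGTCA, the cyclic AMP response half-site TGACG, the CCAAT box, the TATA box TATAAA and the E-box CACGTG.
Ucp1 (chr8:83290098-83290347, plus strand): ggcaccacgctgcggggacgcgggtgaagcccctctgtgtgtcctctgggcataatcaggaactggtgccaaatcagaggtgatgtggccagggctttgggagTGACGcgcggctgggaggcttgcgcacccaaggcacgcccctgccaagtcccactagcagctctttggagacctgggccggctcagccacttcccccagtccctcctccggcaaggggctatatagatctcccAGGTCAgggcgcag
Otop1 (chr5:38277154-38277403, plus strand): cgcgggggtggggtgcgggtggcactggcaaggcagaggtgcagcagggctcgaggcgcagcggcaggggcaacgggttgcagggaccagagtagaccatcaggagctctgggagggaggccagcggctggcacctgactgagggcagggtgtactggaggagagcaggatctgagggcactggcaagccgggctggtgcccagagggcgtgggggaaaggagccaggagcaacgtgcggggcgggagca
Elovl6 (chr3:129532136-129532385, plus strand): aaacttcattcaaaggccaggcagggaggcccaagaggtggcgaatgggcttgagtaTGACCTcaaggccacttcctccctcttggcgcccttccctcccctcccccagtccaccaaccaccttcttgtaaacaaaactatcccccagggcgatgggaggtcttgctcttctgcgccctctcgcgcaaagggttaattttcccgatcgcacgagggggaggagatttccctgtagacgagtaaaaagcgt
Thrsp (chr7:97417551-97417800, minus strand): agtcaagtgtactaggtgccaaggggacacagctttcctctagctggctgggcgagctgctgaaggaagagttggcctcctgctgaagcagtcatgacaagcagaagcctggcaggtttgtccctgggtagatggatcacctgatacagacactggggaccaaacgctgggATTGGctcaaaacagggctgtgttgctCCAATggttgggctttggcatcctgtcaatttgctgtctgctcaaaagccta
Adipoq (chr16:23146286-23146535, plus strand): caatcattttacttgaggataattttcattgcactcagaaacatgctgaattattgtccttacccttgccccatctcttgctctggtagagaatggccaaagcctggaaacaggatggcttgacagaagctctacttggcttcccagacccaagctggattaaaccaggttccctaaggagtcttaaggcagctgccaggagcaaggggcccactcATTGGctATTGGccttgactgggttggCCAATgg

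In the Ucp1 window a nuclear receptor half-site lay from -14 to -9 and a cyclic AMP response half-site from -147 to -143, counted from the start. The Elovl6 window held 1 half-site on the opposite strand, from -193 to -188, the Thrsp window 2 CCAAT boxes and the Adipoq window 3. Over all 32851 promoter windows of this length, 14.0% held AGGTCA on either strand, 17.8% TGACG, 33.8% CCAAT, 12.4% TATAAA and 6.02% CACGTG. Of the 28 windows of the 25 fat genes, 7 held AGGTCA, 4 TGACG, 9 CCAAT, 3 TATAAA and 0 CACGTG. These matches describe the letters in the windows and say nothing of binding.

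**Figure D2:**
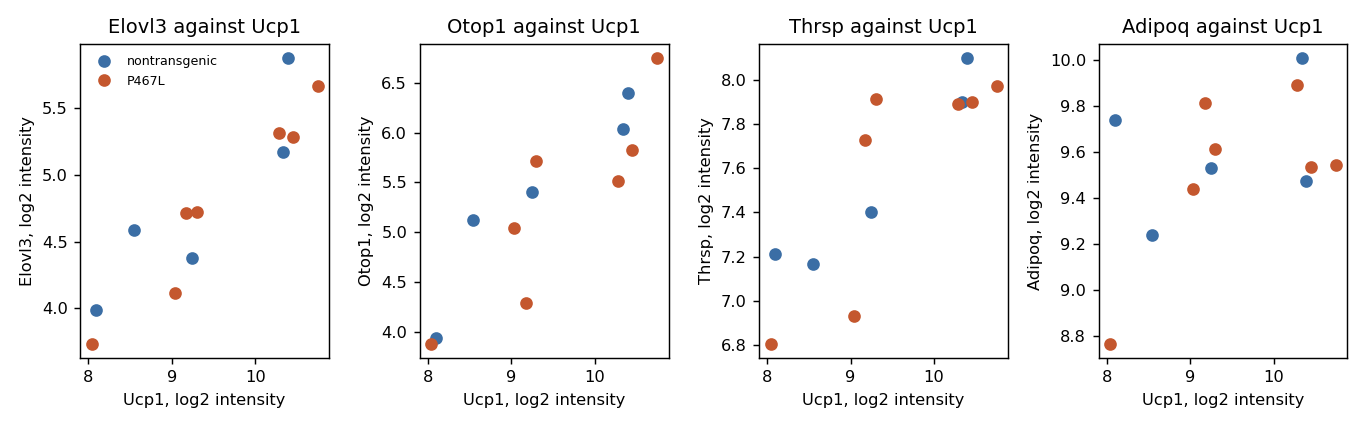
Levels of Elovl3, Otop1, Thrsp and Adipoq (vertical axes) against Ucp1 (horizontal axis), all as log2 intensity, with 1 point per mouse and colour for genotype. The first 3 follow Ucp1 with r between 0.86 and 0.94 on values less their group mean, while Adipoq (r = 0.52) has a single low point, P467L replicate 7.

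The general adipocyte gene Adipoq, which encodes the hormone adiponectin, had a within-group SD of 0.34. Its levels were 9.74, 9.24, 10.01, 9.47 and 9.53 in nontransgenic arrays and 9.61, 9.81, 9.54, 9.89, 9.44, 9.53 and 8.77 in P467L arrays. P467L replicate 7 was the lowest, as it was for Ucp1, while the highest, nontransgenic replicate 3, was not the highest for Ucp1. Adipoq correlated with Ucp1 at r = 0.52 and did not pass (adjusted p = 0.145; rho 0.32, p = 0.308). Without P467L replicates 3 and 7, the arrays farthest in Ucp1, r was 0.30.

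Of the pairs tested with Adipoq, that with Cidec, which encodes a protein that fuses droplets into larger ones, passed. Their r was 0.73 (adjusted p = 0.022; rho 0.76, p = 0.00638), and 0.77 without nontransgenic replicate 3 and P467L replicate 3. The call was lost without nontransgenic replicate 3, without P467L replicate 7, in the P467L arrays alone and with equal numbers averaged (exact permutation, adjusted p = 0.0536), with r between 0.56 and 0.85 over 19 alternatives. Cidea, a related droplet protein typical of brown fat, was at 7.11, 7.06, 6.99, 7.71 and 6.69 in nontransgenic and at 7.46, 6.55, 7.46, 7.30, 6.05, 7.29 and 6.03 in P467L arrays. P467L replicates 5 and 7 were the lowest and nontransgenic replicate 4 the highest. It correlated with Ucp1 at r = 0.66 (adjusted p = 0.0544; rho 0.65, p = 0.0253; 0.50 without 2 arrays) and with Adipoq at r = 0.40 (adjusted p = 0.269; rho 0.22, p = 0.487; -0.09 without 2 arrays), and neither passed. With equal numbers averaged, Cidea with Adipoq passed (r = 0.80, exact permutation, adjusted p = 0.0325).

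The remaining pairs with Adipoq did not pass. These were Plin1, the perilipin that coats the droplet (r = 0.36, adjusted p = 0.292; rho 0.55, p = 0.0685; 0.49 without 2 arrays), and Lep (r = 0.37, adjusted p = 0.28; rho 0.52, p = 0.0876; 0.43 without 2 arrays). Fasn correlated with Adipoq at 0.27 (adjusted p = 0.453; rho 0.19, p = 0.562; 0.26 without 2 arrays). Lep with Ucp1 gave r = -0.26 (adjusted p = 0.453; rho -0.19, p = 0.557; 0.36 without 2 arrays). The added pair of Adipoq with Cyp2e1, a cytochrome P450 that oxidises ethanol and fatty acids, gave r = 0.56 (adjusted p = 0.133; rho 0.61, p = 0.0402; 0.47 without 2 arrays). The tested pairs did not include the gene with the highest r with Adipoq among the 33, the resistin gene Retn (r = 0.84). Over the other 32 fat genes the median r with Adipoq was 0.30.

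Cyp2e1 had a low r of 0.19 with Ucp1, a pair that was not tested. Its levels were 8.56, 7.03, 9.69, 6.89 and 8.03 in nontransgenic arrays and 7.61, 7.47, 8.26, 7.45, 7.59, 7.03 and 7.14 in P467L arrays. The nontransgenic arrays held both the highest and the lowest value, a 6.95-fold range, with a group SD of 1.15 against 0.40 in P467L. Nontransgenic replicates 3 and 4, nearly equal in Ucp1, lay at opposite ends for Cyp2e1.

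One marker of the muscle wall had a negative correlation with Ucp1. Myh11, the smooth muscle myosin heavy chain, correlated with Ucp1 at r = -0.89 (adjusted p = 0.0024; rho -0.83, p = 0.00172), and at -0.86 without P467L replicates 4 and 7. The range of Myh11 itself was small, from 11.67 to 11.96, and after quantile normalization the correlation was -0.40 and did not pass (adjusted p = 0.249). Adipoq with Myh11 gave -0.51 (adjusted p = 0.147; rho -0.31, p = 0.323) and -0.05 without 2 arrays, and +0.28 after quantile normalization. The mean level of 10 smooth muscle markers, all measured and above background, lay between 9.58 and 9.77 in nontransgenic and between 9.52 and 9.94 in P467L arrays. It was lowest in P467L replicate 3, the array highest in Ucp1, and highest in P467L replicate 7, the array lowest in Ucp1. It was second highest in P467L replicate 6, at 9.80, the array second highest in Ucp1, so the marker mean did not follow Myh11 in every array, and its correlation with fat genes was not tested.

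Of 15 macrophage markers 13 were measured, all above background, with mean levels between 6.33 and 6.95 in nontransgenic and between 6.34 and 6.85 in P467L arrays, where replicate 3 of each group was the highest. Of 10 endothelial markers, 9 of them above background, the mean lay between 6.40 and 6.71 in nontransgenic and between 6.47 and 6.63 in P467L arrays. Of 17 skeletal muscle markers 16 were measured and 9 were above background. P467L replicate 4, where these were high, was not high for Slc2a4 (5.11), the insulin-responsive glucose transporter that skeletal muscle shares with fat. The part of these cell types in the fat gene values was not tested. The upper quartile of an array correlated with Ucp1 at r = 0.40 (adjusted p = 0.269; rho 0.32, p = 0.307; 0.30 without 2 arrays) and with Adipoq at -0.08 (adjusted p = 0.818; rho -0.20, p = 0.53; -0.13 without 2 arrays), and neither passed.

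**Figure D3:**
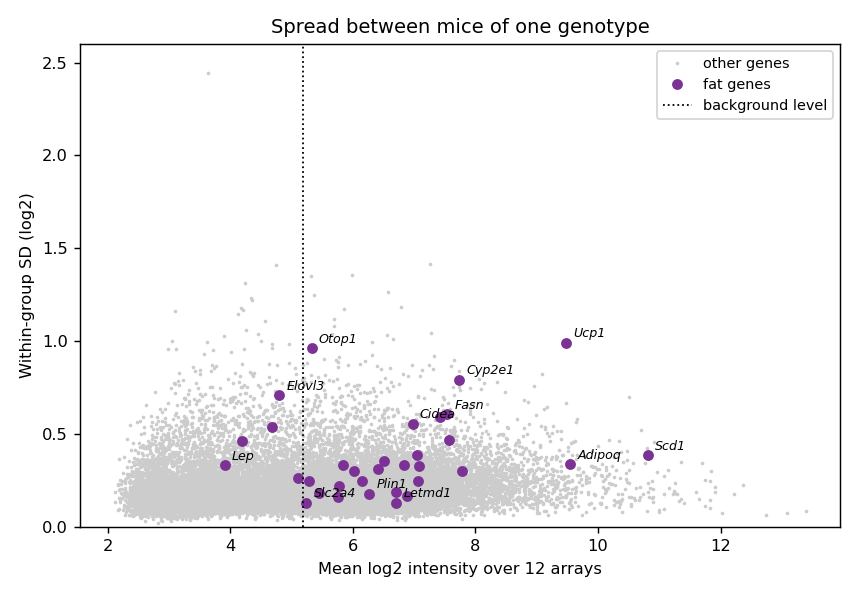
Within-group SD in log2 units (vertical axis) against the mean log2 intensity over 12 arrays (horizontal axis) for all genes in grey and the 33 fat genes in purple, with the background level of 5.18 dotted. Ucp1, Otop1 and Cyp2e1 stand above nearly all genes of their level, while Slc2a4, Letmd1 and Plin1 lie among the rest.

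The spread between mice was concentrated in few of the fat genes. Of the summed squared deviations of all 33 genes from their group means, Otop1 held 14.2%, Cyp2e1 9.62% and Elovl3 7.72%, and with Ucp1, which held the most, 46.6%. A first principal component of these deviations took 56.9% and a second 14.7%. The median within-group SD was 0.33 over the fat genes and 0.20 over the genes above background. At the low end stood Slc2a4 and Letmd1 (both 0.13), the glycerol channel gene Aqp7 (0.16) and Dgat1, which completes triglyceride synthesis (0.16).

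P467L and nontransgenic aortas were then compared for each fat gene, which asks whether interference with PPAR gamma in smooth muscle went with a difference in the fat RNA of the vessel. In limma, a linear model with moderated variances fitted over all 19687 genes, 0 of the 33 passed the threshold of 0.05 for the p-value after Benjamini-Hochberg adjustment, against 0.244% of all genes. At an unadjusted p under 0.05, 2 of the 33 differed, against 4.82% of all genes. The lowest adjusted p of a fat gene was 0.983. Differences are P467L minus nontransgenic on the log2 scale, ± SE. Their median over the 33 genes was 0.03, and 0.00 over all genes, with 18 above and 15 under 0. In 20 of the 33 the difference was smaller than its SE. In 0 of the 33 genes were the groups free of overlap, against 0.726% of all genes.

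Among the thermogenic genes Ucp1 averaged 9.32 ± 1.04 (SD, n = 5) in nontransgenic and 9.58 ± 0.96 (SD, n = 7) in P467L aortas. The difference of 0.25 ± 0.51 had a 95% interval from -0.84 to 1.34 (limma adjusted p = 0.999). Otop1 differed by -0.09 ± 0.49 (interval -1.15 to 0.97) and Elovl3 by -0.01 ± 0.36 (interval -0.79 to 0.78). The other thermogenic genes differed by 0.13 ± 0.18 for Dio2, -0.17 ± 0.28 for Slc27a2 (but 0.29 on its other row), 0.06 ± 0.08 for Letmd1 and 0.17 ± 0.10 for Kcnk3. The within-array difference of Ucp1 and Adipoq, which sets brown against general adipocyte RNA, was 0.34 higher in P467L arrays. Its mean was -0.27 ± 0.98 (SD, n = 5) in nontransgenic and 0.06 ± 0.78 (SD, n = 7) in P467L arrays (exact two-sided permutation test over 792 splits, p = 0.516). This difference had no settled direction: it was -0.01 without nontransgenic replicate 1 and -0.03 with medians in place of means. It was 0.63 without nontransgenic replicate 4, 0.15 without P467L replicate 3 and 0.19 without P467L replicate 6.

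Prdm16, a coregulator that sets brown fat identity, had the lowest p of the set. Its levels were 7.81, 8.19, 7.79, 8.32 and 7.84 in nontransgenic arrays and 7.89, 7.26, 7.06, 7.66, 7.79, 7.80 and 7.88 in P467L arrays. The groups overlapped between 7.79 and 7.89, P467L replicates 2 and 3 were the lowest, and replicate 3 was the highest array for Ucp1. Across mice the r of Prdm16 was -0.23 with Ucp1 and -0.50 with Adipoq, neither of them tested. The difference was -0.37 ± 0.16 (limma unadjusted p = 0.0378, adjusted p = 0.983), and the 2 other rows of the gene differed by -0.18 and -0.05. Cebpa, a transcription factor of all adipocytes, differed by -0.12 ± 0.11.

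**Figure D4:**
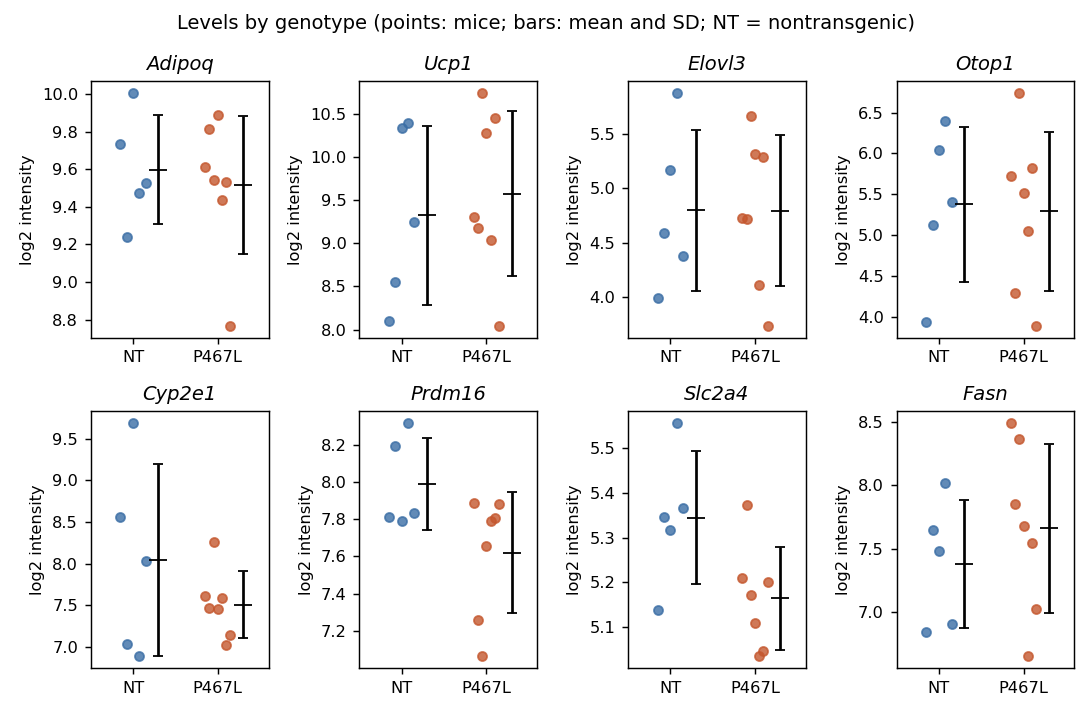
Log2 intensity (vertical axes) of 8 fat genes in nontransgenic (NT, 5 mice) and P467L (7 mice) aortas, with points for mice and bars for the group mean and SD. In all 8 panels the groups overlap, and the panels of Ucp1, Otop1 and Elovl3 show wide spread in both.

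Slc2a4, the other gene with an unadjusted p under 0.05, was at 5.14, 5.35, 5.32, 5.56 and 5.37 in nontransgenic arrays. In P467L arrays it was at 5.21, 5.37, 5.17, 5.11, 5.03, 5.05 and 5.20. The groups overlapped close to background, with nontransgenic replicate 1 and 4 of the 7 P467L arrays under it, and the difference was -0.18 ± 0.08 (limma unadjusted p = 0.0490, adjusted p = 0.999). Mrap, an accessory protein of the corticotropin receptor that fat cells carry, differed by -0.07 ± 0.14.

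Genes of triglyceride breakdown and glycerol handling differed in both directions. Pck1, whose enzyme supplies glycerol backbones in fat, was at 6.35, 6.22, 6.67, 6.28 and 6.07 in nontransgenic and at 6.37, 5.78, 6.32, 6.24, 5.76, 5.92 and 5.86 in P467L arrays. Of the P467L arrays 4 lay below the whole nontransgenic group, and the difference was -0.28 ± 0.14. Pnpla2, the lipase of the first step of triglyceride breakdown, differed by 0.26 ± 0.14, and its other row by 0.21. Pnpla3, a related lipid-remodelling protein, differed by 0.18 ± 0.18 and Aqp7 by 0.10 ± 0.10. In each of the 5 pairs of equal replicate number the P467L array was the higher one for Pnpla2 and for Pnpla3. The pair differences were 0.01 to 0.64 and 0.03 to 0.55, and neither gene passed with the number as a block (limma adjusted p = 0.470 and 0.296). Of the 33 fat genes, Pnpla2 and Pnpla3 were the only ones with all 5 pairs on one side. Whether more genes did so than by chance was not tested, so these signs show no consistent rise.

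The fat synthesis genes differed by less than their SE in all 7 cases, from -0.10 ± 0.14 for Me1, a source of NADPH, to 0.28 ± 0.31 for Fasn. Acaca, the carboxylase that commits acetyl-CoA to fat synthesis, differed by 0.20 ± 0.30, and its 3 other rows by 0.03, 0.06 and 0.07. Acly, which makes cytosolic acetyl-CoA, differed by 0.16 ± 0.17, the desaturase gene Scd1 by 0.03 ± 0.20, Thrsp by 0.04 ± 0.24 and Elovl6 by 0.21 ± 0.24. Of the triglyceride assembly genes Dgat1 differed by -0.03 ± 0.10, Dgat2 by 0.02 ± 0.19 and Agpat2 by 0.03 ± 0.17.

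The droplet proteins and hormones did not pass either. Plin1 was at 6.27, 6.24, 6.30, 6.08 and 6.08 in nontransgenic and at 6.56, 6.52, 6.46, 6.33, 5.98, 6.13 and 6.26 in P467L arrays. The nontransgenic values lay within the wider range of the P467L group. Plin1 differed by 0.12 ± 0.10, Cidec by -0.24 ± 0.20 and Cidea by -0.23 ± 0.29. Adipoq differed by -0.08 ± 0.18, with an interval from -0.47 to 0.30. The hormone gene Retn, which encodes resistin, differed by -0.09 ± 0.16. Lep was at 4.52, 3.91, 3.68, 3.33 and 3.45 in nontransgenic and at 3.82, 4.21, 4.14, 4.15, 3.91, 4.02 and 3.72 in P467L arrays. The nontransgenic arrays held both its highest and its lowest value, all under background, and it differed by 0.22 ± 0.17. Cyp2e1 differed by -0.53 ± 0.41, with an interval from -1.41 to 0.34. That value rests on nontransgenic replicate 3, without which it was -0.12, and it was -0.82 without nontransgenic replicate 4. S100b, a calcium-binding protein found in adipocytes and Schwann cells, differed by 0.13 ± 0.12.

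**Figure D5:**
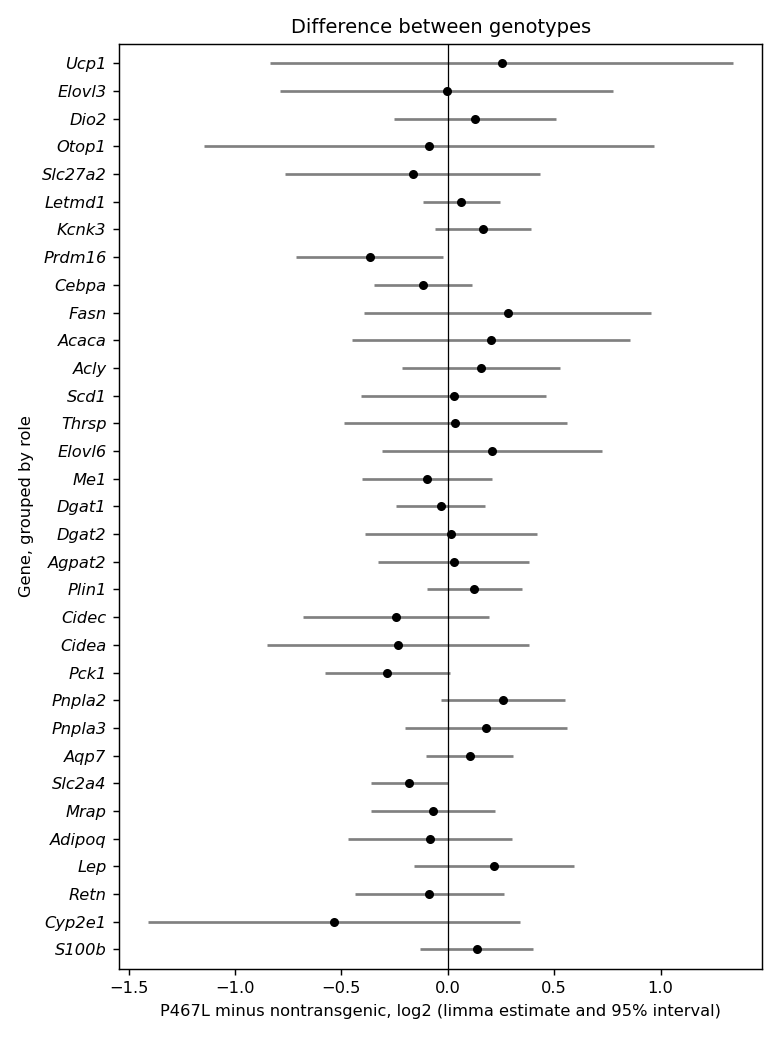
Difference P467L minus nontransgenic in log2 units (horizontal axis; point, limma estimate; bar, 95% interval) for the 33 fat genes, grouped by role. The points lie between -0.53 and 0.28, and the widest bars are those of Ucp1 and Otop1.

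A further list of 48 genes of fat cell differentiation, lipid uptake and heat production held 41 that were measured, 34 of them above background. Of the 41 genes 0 passed the test in either direction in limma, against 0.244% of all genes. At an unadjusted p under 0.05, 0 differed, against 4.82% of all genes. Their median difference was -0.07, with 13 above and 28 under 0, against 9949 above and 9738 under 0 over all genes. Several of the 41 genes varied together across mice, so their signs are not independent. The 4 with the smallest p were G0s2, an inhibitor of the lipase encoded by Pnpla2 (-0.18 ± 0.10), and Hcar1, the lactate receptor of adipocytes (-0.20 ± 0.13). The others were Ppargc1b, a coactivator of mitochondrial genes (-0.37 ± 0.26), and Angptl4, a secreted inhibitor of lipoprotein lipase whose mean was under background (-0.13 ± 0.10). Pparg itself differed by 0.01 ± 0.12 on a row of which it is not known here whether it detects the human transgene, so it does not check the labels. Across mice 10 of the 41 genes and 6 of the other 32 fat genes had r above 0.7 with Ucp1, against 1.25% of the genes above background. With Adipoq 5 of the 41 and 2 of 32 did, against 0.574%. These shares are descriptions over the same 12 arrays, with no test.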

How the data were processed

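The authors deposited log2 intensities, 1 column per mouse, made with Affymetrix Power Tools and RMA on mm9 per the submitters' processing notes. The sources used here give no versions or filters. About 50 ng of total RNA per mouse was amplified before hybridisation, per the labels' protocols. RMA can compress differences of dim genes. The table held 101175 rows and 0 missing values. Of these rows 22754 had 1 gene symbol in the platform annotation, 1522 had several and 76899 had none there, leaving 19687 genes, 1 row each by highest mean. All 33 genes used kept their symbol in a RefSeq gene table.

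Groups were compared in limma 3.58.1 (R 4.3.3), tested on simulated data, over all genes with no covariate, and by exact permutation. Correlations used NumPy 2.4.6 in Python 3.11.15. The genes named were all members, the 4 smallest p of the further fat list, and Myh11, and every array's value of Otop1 and Cyp2e1 was added after seeing the data; others are said to be chosen after their values were seen. The members and lists were chosen with earlier results of these data known. Replicate numbers 1 to 5 occur in both groups, and arrays of equal number deviated together from their group means (r between 0.227 and 0.398 over genes). No label explains the numbers, and 3 of the 5 nontransgenic arrays had the equal number as best partner. The number was therefore used in alternatives only, as a block or as pairs. The main fit, the main permutation test and the main correlations did not use it. No 2 arrays held identical values. Alternatives were the replicate block (for correlations, arrays of equal number averaged, added after seeing the data), arrays left out, other scalings, covariates, filters, rows, variances and weights.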

Additional observations from a re-analysis of the deposited data

Results flagged for a closer look

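In 66 groups of values, 33 genes in each genotype, 5 held an array far from the others by Dixon's test, which flags about 1 group in 20 by chance. Adipoq was low in P467L replicate 7, at 8.77 against 9.44 to 9.89 in the other 6 P467L arrays. Cidec was high in nontransgenic replicate 3, at 7.81 against 6.93 to 7.13 in the other 4, and S100b was low in the same array, at 5.49 against 5.71 to 5.78. Dgat2, which completes triglyceride synthesis, was high in P467L replicate 1, at 7.45 against 6.16 to 6.56, the array that was also highest for Fasn and Scd1. Elovl6 was high in nontransgenic replicate 4, at 4.99 against 3.73 to 4.02, an array also high for Ucp1, Elovl3 and Otop1.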

How the results depend on the processing

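None of the 33 genes passed the threshold under any alternative run, where the lowest adjusted p was 0.296 (Pnpla3, replicate block). Of the 33 differences, 14 had another sign in at least 1 of 23 alternatives and 19 in none. With the replicate block Ucp1 differed by 0.39 ± 0.20, the median of the 33 was 0.08, and no call on a fat gene's difference changed. Those block differences rest on numbers 1 to 5, since numbers 6 and 7 occur in P467L only. The number of all genes passing, 48, is less stable: 30 with the block, 74 after quantile normalization, 106 with the upper quartile as covariate, 9 among all rows and 8 without the 3 least correlated arrays. Leaving out 1 array gave 11 to 48, with moves over 1.5 times without nontransgenic replicate 1, 3, 4 or 5 (11, 18, 13, 22) or P467L replicate 2, 4, 5, 6 or 7 (29, 22, 24, 24, 30). Of the 20 correlations 7 passed. Among the pairs chosen with the anchors, these were Ucp1 with Elovl3 and with Myh11, and Adipoq with Cidec. The others, Ucp1 with Otop1, Elovl6, Thrsp and Slc27a2, were added for their values in these arrays, so that their passing is no independent support. In the P467L arrays alone 2 of the 20 passed, on fewer arrays, and the median r of the fat genes was 0.47 there. Ucp1 with Elovl3 and with Thrsp passed under all 19 alternatives, with Otop1 under 18, with Elovl6 and with Myh11 under 17 and with Slc27a2 under 11. With the replicate block of averaged numbers 5 passed. Without nontransgenic replicate 2 or 3 or P467L replicate 3 or 7, Slc27a2 did not pass. Signals near background limit Lep, Elovl3, Elovl6, Otop1, Slc27a2, Me1 and Slc2a4.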

Other observations

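Among genes that handle fatty acids in many tissues, Cd36, the fatty acid transporter, and Plin2, which coats droplets in many cells, were chosen here after their values were seen. Cd36 was lowest, at 7.12, in P467L replicate 7, where Ucp1 was lowest, and ranged from 7.65 to 8.37 in nontransgenic and up to 8.39 in P467L arrays. With the Ucp1 level as a covariate, a fit added after seeing the data, the SE of the Cd36 difference went from 0.21 to 0.10 and the difference from -0.11 to -0.20 (limma adjusted p = 0.999). For Plin2 the SE went from 0.13 to 0.08. Cd36 and Plin2 had r of 0.92 and 0.89 with Ucp1, so their smaller SE follows from that choice of genes. Of the 41 further fat genes 0 passed the test with this covariate.

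Ucp1 can also be read by replicate number. The nontransgenic and P467L levels were 8.10 and 9.30 for number 1, 8.55 and 9.18 for number 2, 10.34 and 10.75 for number 3, 10.39 and 10.28 for number 4 and 9.25 and 9.04 for number 5. Numbers 3 and 4 were thus high in both genotypes. The differences within pairs ran from -0.21 to 1.21. The SE of the Ucp1 difference was 0.20 with the number as a block against 0.51 without it. The block estimate rests on the 5 pairs and draws nothing from P467L replicates 6 and 7 (10.45 and 8.04). The fit without the block used all 12 mice, so the SEs are not of the same mice. Otop1 differed within pairs by -0.88 to 1.78, and its SE was 0.39 with the block and 0.49 without it.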
